A study of Mus musculus with 3 samples.

Results

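Innate defence genes and acute-phase genes were followed in CT26.WT cells exposed to recombinant S100a8 or S100a9. The genes were Acod1, Nos2, Saa3, Lcn2, Hp, Cp and C3, selected from the gene symbols of the platform annotation with earlier results of these arrays known, so their ratios are given as a description and no test is attached to them. Of these 7 genes, 6 had probe sets carrying their symbol alone, 13 probe sets in all, among 18193 named genes on the array. C3 was not analysed here. Acod1, Saa3, Cp and Lcn2 gave a mean signal above the floor of 76.0, the median of all signals, and were among 11138 genes compared, while Nos2 and Hp lay below it.

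CT26.WT is a clone of a chemically induced, undifferentiated mouse colon carcinoma, grown as an established cell line. S100a8 and S100a9 are calcium-binding proteins of myeloid cells that act on neighbouring cells through receptors such as Tlr4. Cultures were kept without serum for 12 h and then given 4 µg/ml of mouse S100a8 or S100a9 for 24 h, and each was hybridised to 1 Affymetrix Mouse Genome array. The control culture is labelled as treated with BSA in its title and with saline in its description, and no agent time is listed for it. Each group therefore held 1 array, all from unmodified cells of the same line. There were no replicates, no spread within a group and no p-values.

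Cells that sense microbial products or inflammatory cytokines switch on a defence programme made of enzymes and secreted proteins. Acod1, also known as Irg1, removes carbon dioxide from cis-aconitate, an intermediate of the citric acid cycle, to make itaconate, which inhibits succinate dehydrogenase and some bacterial enzymes. Nos2 is the inducible nitric oxide synthase, which uses arginine and tetrahydrobiopterin. Saa3 is a serum amyloid A apolipoprotein made largely outside the liver. Lcn2 binds iron-loaded bacterial siderophores, Cp (ceruloplasmin) is a copper-carrying ferroxidase, and Hp (haptoglobin) binds free haemoglobin.

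The bases just before the annotated start of 4 of these genes are shown because Acod1, Saa3 and Cp were lower and Lcn2 higher with each protein than in the control. Windows of 250 bases were taken from the RefSeq promoter table (build GRCm38.p6), which held 4 of the 6 measured genes. They lie at chr14:103046762-103047011 (plus strand) for Acod1, chr7:46715677-46715926 (minus strand) for Saa3, chr3:19956804-19957053 (plus strand) for the upstream of 2 Cp starts, and chr2:32387740-32387989 (minus strand) for Lcn2. Capitals mark matches, on either strand, to the motifs named after the sequences.
Acod1: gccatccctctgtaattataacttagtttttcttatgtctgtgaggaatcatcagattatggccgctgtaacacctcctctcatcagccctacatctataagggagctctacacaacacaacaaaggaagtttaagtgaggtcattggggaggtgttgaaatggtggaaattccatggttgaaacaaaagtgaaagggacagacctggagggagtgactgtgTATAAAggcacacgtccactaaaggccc
Saa3: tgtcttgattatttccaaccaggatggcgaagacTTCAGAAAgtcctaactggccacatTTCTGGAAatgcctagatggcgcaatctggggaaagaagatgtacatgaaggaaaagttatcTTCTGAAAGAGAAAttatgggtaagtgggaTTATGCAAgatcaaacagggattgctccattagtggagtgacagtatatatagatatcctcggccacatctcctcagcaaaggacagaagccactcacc
Cp: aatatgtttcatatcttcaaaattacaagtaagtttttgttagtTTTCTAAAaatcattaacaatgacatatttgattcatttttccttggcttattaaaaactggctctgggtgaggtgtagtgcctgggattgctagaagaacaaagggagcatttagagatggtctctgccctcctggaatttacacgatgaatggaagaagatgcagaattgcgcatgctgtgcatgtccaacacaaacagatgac
Lcn2: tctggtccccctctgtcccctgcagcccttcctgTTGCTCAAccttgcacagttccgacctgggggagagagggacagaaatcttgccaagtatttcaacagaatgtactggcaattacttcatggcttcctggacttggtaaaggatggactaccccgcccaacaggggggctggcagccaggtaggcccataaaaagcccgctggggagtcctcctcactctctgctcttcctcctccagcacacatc

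The motifs searched were the kappaB consensus, bound by NF-kB; the C/EBP pattern TTNNGNAA; the STAT pattern TTCNNNGAA; the interferon-stimulated element TTTCNNTTTC; and the core promoter box TATAAA. Saa3 held 4 C/EBP matches, at 216, 191, 129 and 99 bases before the start, and an interferon element match at 125 bases that overlaps the third of them. Acod1 held a TATAAA at 28 bases before the start and none of the other patterns. Lcn2 and the upstream Cp window each held 1 C/EBP match, at 216 and 206 bases. The window of the downstream Cp start, not printed here, held a C/EBP match at 70 bases and TATAAA at 25 bases. Over all 32851 windows of the table, 36.8% held the C/EBP pattern, 12.4% TATAAA, 7.25% the kappaB consensus, 7.02% the STAT pattern and 2.98% the interferon element. The C/EBP pattern is thus common, and a match describes letters, not a bound site. The kappaB letters as searched, GGGRNNYYCC (R for A or G, Y for C or T), and the STAT letters were not in these windows. Looser forms of the kappaB letters were not searched.

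Acod1 had the largest differences from control of the 4 compared genes. Its signal was 293 in the control, 143 with S100a9 and 106 with S100a8. The control signal was the highest, and the S100a8 signal was the closest to the floor. This is 2.77-fold lower with S100a8 (log2 ratio −1.47) and 2.04-fold lower with S100a9 (−1.03), from a single probe set. Counted from the lowest ratio, Acod1 stood at place 9 of 11138 genes with S100a8 and at place 14 with S100a9. With the floor at the 65th percentile of all signals, both treated arrays fell under it, and the gene was at least 1.90-fold lower (log2 bound −0.93) with either protein and had no order between them. Acod1 was among the dimmest 25% of compared genes, whose median log2 ratio with S100a8 was 0.14.

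Of the 4 compared genes, Acod1, Saa3 and Cp (3 of 4) were below control with each protein, as were 47.5% of all compared genes with S100a8 and 48.1% with S100a9. At least 1.5-fold lower than control were Acod1 and Saa3 with S100a8, 2 of the 4 compared genes, and Acod1 alone with S100a9. Over all compared genes this size was reached by 1.91% with S100a8 and 0.853% with S100a9. Acod1 was also at least 2-fold lower with each protein, as were 0.287% and 0.144% of all compared genes. None of the 4 was at least 1.5-fold higher than control, a size reached by 1.13% of genes with S100a8 and 0.251% with S100a9. Since the genes were chosen with these contrasts in view, nothing is read from these shares. Both contrasts use the same control array.

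**Figure D1:**
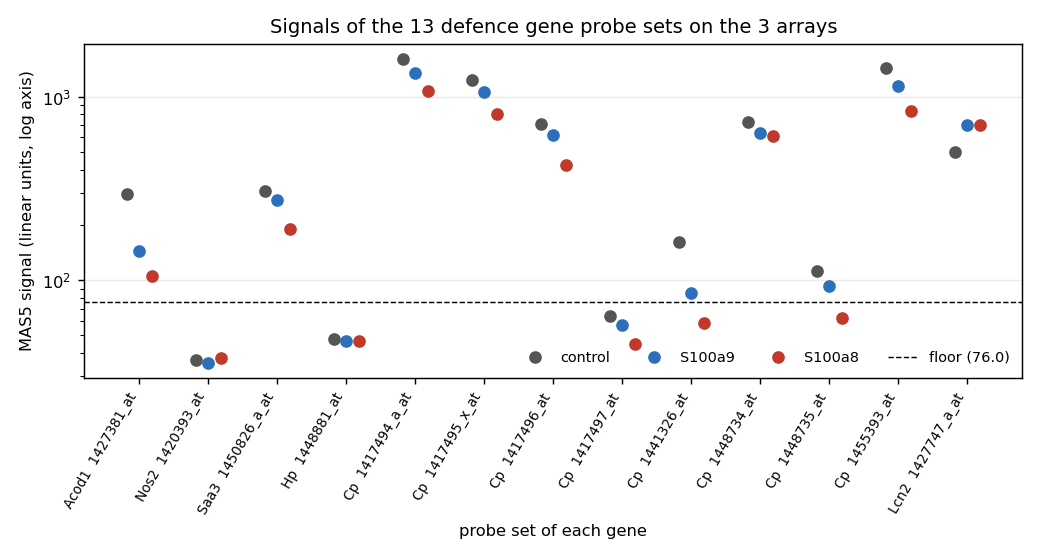
MAS5 signal (vertical log axis, linear units) of each of the 13 probe sets on the control, S100a9 and S100a8 arrays, 1 point per array with no error bar because each group held 1 array. Acod1 runs from 293 in the control to 106 with S100a8, Lcn2 is above its control signal of 502 on both treated arrays, and Nos2 and Hp lie below the dashed floor of 76.0.

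The genes around itaconate synthesis did not share the size of the Acod1 difference. Of 27 listed genes of the citric acid cycle and itaconate response, 25 were compared, and 11 were lower and 14 higher with S100a8, a split that turned to 15 lower and 10 higher after centring each array on its median log2 signal. The median was 0.01 on the log2 scale, as it was for all compared genes (0.01). With S100a9, 7 were lower and 18 higher, with a median of 0.03 against 0.0045 for all genes. This split also moved with median centring, to 2 lower and 23 higher, where the median of all genes was 0.05. Of all compared genes, 47.5% were lower with S100a8 and 48.1% with S100a9. None of the 25 listed genes compared reached 1.5-fold in either direction. Slc25a1, the mitochondrial citrate carrier, was lowest (log2 ratios −0.49 with S100a8 and −0.38 with S100a9), followed by Acly, which splits cytosolic citrate (−0.29 and −0.05). Aco1, the cytosolic aconitase and iron regulatory protein, had 0.30 and 0.03, and Mdh2, mitochondrial malate dehydrogenase, 0.28 and 0.13. Slc25a10, the dicarboxylate carrier, had 0.25 and 0.27, and Suclg1, a subunit of succinyl-CoA ligase, 0.19 and 0.22. The succinate dehydrogenase subunits, looked up after their values were seen, ran from −0.12 (Sdha) to 0.08 (Sdhb) with S100a8 and from −0.02 (Sdha) to 0.10 (Sdhc) with S100a9.

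Nos2 gave no signal above the floor. Its probe set had 36.8 in the control, 35.5 with S100a9 and 37.8 with S100a8. The 3 values lie close together and below the level at which genes were compared, so neither a level nor a fold is given. The arginine enzymes Ass1 (41.7, 39.3 and 46.1 in the control, S100a9 and S100a8 arrays), Arg1 (31.5, 34.1 and 33.5) and Arg2 (12.7, 14.2 and 20.3) were also below the floor on each array. Of 22 listed genes of arginine, nitric oxide and tetrahydrobiopterin metabolism, 14 were compared, with 8 lower and 6 higher with S100a8 (median −0.0038) and 7 lower and 7 higher with S100a9 (median −0.01). None was 1.5-fold from control.

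Genes of tetrahydrobiopterin supply lay above the floor where Nos2 did not. Gch1, the first enzyme of that synthesis, had signals of 1742 in the control, 1581 with S100a9 and 1540 with S100a8. Gchfr, the feedback regulator of Gch1, had 512, 735 and 727, so its signal was higher on both treated arrays (log2 ratios 0.52 with S100a9 and 0.51 with S100a8). Pts, the next enzyme of the synthesis, had log2 ratios of 0.27 with S100a9 and −0.01 with S100a8. Asl, which makes arginine, had −0.13 and −0.24, the arginine importer Slc7a1 −0.21 and −0.16, and Nos3, the endothelial synthase, −0.31 and −0.08. Nos3 was dim, with 110 in the control, 88.45 with S100a9 and 104 with S100a8. Ddah1, which clears methylated arginines that inhibit nitric oxide synthases, had 0.09 with S100a9 and 0.36 with S100a8.

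Saa3 was lower with S100a8 than on either other array. Its signal was 306 in the control, 275 with S100a9 and 190 with S100a8. The S100a9 signal lay much nearer to the control than to S100a8. The gene was 1.61-fold lower with S100a8 (log2 ratio −0.68) and 1.11-fold lower with S100a9 (−0.15). Between the treated arrays Saa3 was 1.44-fold higher with S100a9 (0.53), and 0.162% of compared genes had a higher ratio in that comparison.

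The other acute-phase transcripts were mostly below the floor. Of 27 listed acute-phase genes 25 had a probe set and 5 were compared. Among those below the floor on each array were Saa1 (41.9 in the control, 53.7 with S100a9 and 50.1 with S100a8) and Saa2 (33.8, 25.4 and 30.7), relatives of Saa3. The 5 compared genes had median log2 ratios of 0.02 with S100a8 and 0.02 with S100a9, and none was 1.5-fold from control. Cd14, a co-receptor of Tlr4, had signals of 1413 in the control, 1418 with S100a9 and 1075 with S100a8 (log2 ratios 0.01 and −0.39). Lbp, the endotoxin-binding protein, had 140, 148 and 174 (0.08 and 0.31), and the metallothionein Mt2 9921, 10073 and 10064 (0.02 with either protein). Apcs, serum amyloid P, had log2 ratios of −0.15 with S100a9 and −0.02 with S100a8.

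Hp had 47.9 in the control, 46.8 with S100a9 and 46.8 with S100a8, below the floor on each array. Without the floor the treated signals were 97.8% (S100a9) and 97.7% (S100a8) of the control. No fold is given for Hp. Of 8 hepatocyte markers with a probe set, 6 were below the floor on each array as well, among them Alb, Apoa1 and Fgb. Apoc3 was above it on each array (control 84.1, S100a9 86.9 and S100a8 91.8), and Ttr with S100a8 alone (78.5).

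Cp was lower with each protein on all of its 8 probe sets, and lower with S100a8 than with S100a9 on all 8, also after median centring and quantile normalization. The brightest probe set, which stands for the gene, had signals of 1599 in the control, 1340 with S100a9 and 1078 with S100a8. The control was the highest and the S100a8 array the lowest. The log2 ratios were −0.26 with S100a9 and −0.57 with S100a8, that is 1.19-fold and 1.48-fold lower, the latter just short of 1.5-fold, a size it passed after median centring. S100a9 was 1.24-fold above S100a8 (0.31).

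The Cp probe sets gave differences of unequal size. On the 5 probe sets above the floor on each array, the S100a8 signal was 58.2% to 83.8% of the control (median log2 ratio −0.63, SD 0.21 over probe sets) and the S100a9 signal 79.9% to 88.1% (median −0.23, SD 0.06). With S100a8, 3 of these 5 were at least 1.5-fold lower. The probe set 1455393_at was the lowest of them, with 1427 in the control, 1140 with S100a9 and 831 with S100a8. The probe set 1448734_at was nearest to control, with 727, 637 and 610, and it separated the treated arrays least (log2 ratio 0.06). A dim probe set, 1441326_at, had 162, 85.1 and 58.4, so that it was 1.90-fold lower with S100a9 and at least 2.13-fold lower with S100a8. Another, 1448735_at, had 113, 93.3 and 62.0 and was at least 1.48-fold lower with S100a8. The last, 1417497_at, was below the floor throughout (63.4, 56.7 and 44.9). Probe sets of a gene read the same RNA of the same 3 cultures, so they are no replicates of a treatment.

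**Figure D2:**
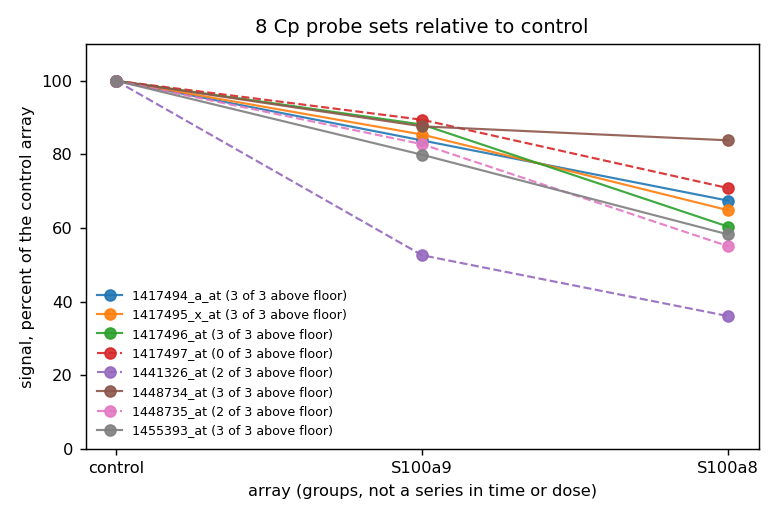
Signal of each of the 8 Cp probe sets as a percent of its own control signal (vertical axis) on the control, S100a9 and S100a8 arrays, with solid lines for probe sets above the floor on all 3 arrays and dashed lines for the others. Each line goes down from control to S100a9 and again to S100a8, and the solid lines end between 58.2% and 83.8%.

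No gene of iron, copper and haem handling on the list was 1.5-fold from control. Of 21 listed genes 14 were compared, with 8 lower and 6 higher for each protein, and medians of −0.0044 with S100a8 and −0.03 with S100a9. The copper pumps Atp7a, which loads copper enzymes, and Atp7b, which loads Cp in hepatocytes, had log2 ratios of −0.33 and −0.31 with S100a8 and of −0.09 and −0.34 with S100a9. Atp7b was dim, with 114 in the control, 92.0 with S100a8 and 90.4 with S100a9. The copper importer Slc31a1 had 0.24 and 0.18, and the copper chaperone Atox1 0.21 and 0.19. The haem-degrading enzyme Hmox1 had 0.23 with S100a8 and −0.0024 with S100a9. Ireb2, an iron regulatory protein, had −0.27 and −0.21.

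Lcn2 was the compared gene that lay above control with both proteins. Its signal was 502 in the control, 700 with S100a9 and 702 with S100a8. The treated arrays had nearly equal signals, and both were above the control. The gene was 1.40-fold higher with S100a8 (log2 ratio 0.48) and 1.39-fold higher with S100a9 (0.48), and the log2 ratio between the treated arrays was −0.0044. With S100a8, 2.68% of compared genes had a higher ratio, and with S100a9 0.682%. Slc22a17, a cell-surface receptor for Lcn2, was dim, with 98.0 in the control, 114 with S100a8 and 73.9, under the floor, with S100a9.

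Across the 3 arrays, Acod1, Saa3 and Cp had the order control, then S100a9, then S100a8, from high to low, and Lcn2 had the control lowest. The first order was held by 23.6% of all compared genes, and a control below both treated arrays by 37.4%. Relative to its own S100a8 ratio, the S100a9 log2 ratio was 0.703 as large for Acod1, 0.449 for Cp, 0.223 for Saa3 and 0.991 for Lcn2. Between the treated arrays none of the 4 was at least 1.5-fold higher with S100a9, a size that 0.0988% of compared genes reached, or 1.5-fold lower, reached by 1.01%. After centring each array on its median log2 signal, Saa3 reached that size, and the median of all genes in this comparison moved to 0.11.

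**Figure D3:**
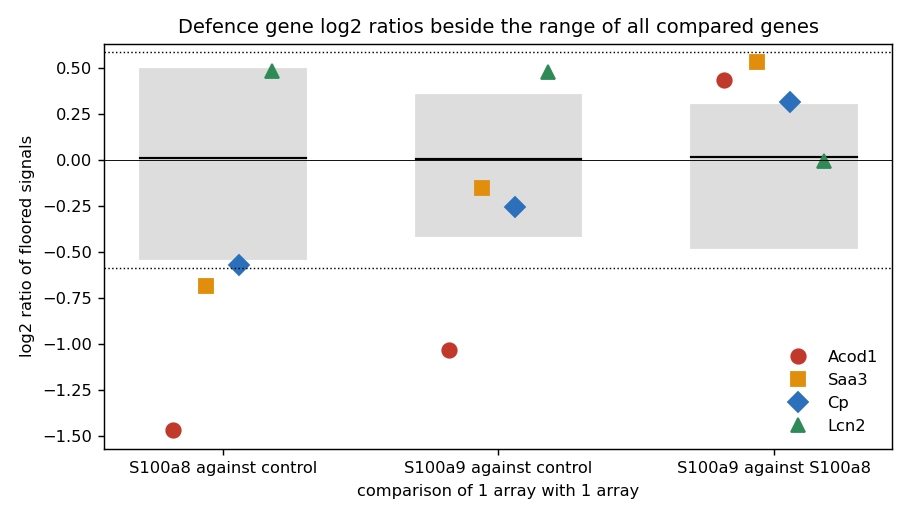
Log2 ratios (vertical axis) of Acod1, Saa3, Cp and Lcn2 in the 3 comparisons of single arrays, with grey boxes for the central 95% of the 11138 compared genes, a black line for their median and dotted lines at 1.5-fold. Acod1 lies below the box at −1.47 with S100a8 and −1.03 with S100a9, while Lcn2 is at 0.48 in each.

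Of 37 listed complement genes 27 had a probe set and 9 were compared, with 6 lower and 3 higher with S100a8 (median log2 ratio −0.17) and 7 lower and 2 higher with S100a9 (−0.05), or 5 lower and 4 higher with S100a9 after median centring. Below control were 47.5% of all compared genes with S100a8 and 48.1% with S100a9. At least 1.5-fold lower were 2 of the 9 with S100a8, against 1.91% of all compared genes, and none with S100a9, against 0.853%. Cfp (properdin), which stabilises the alternative pathway convertase, had 314 in the control, 228 with S100a9 and 188 with S100a8 (log2 ratios −0.46 and −0.74). C1s1, a protease of the classical pathway, had 1325, 1089 and 843 (−0.28 and −0.65). Cfp and C1s1 had the same order of arrays as Cp, as did 23.6% of all compared genes. C5ar1, the C5a receptor, had −0.05 and 0.32, and Vtn, vitronectin, 0.12 and 0.30, both from dim signals. Cr1l, a membrane regulator of complement, had 0.07 and −0.08. C3ar1, the C3a receptor, was below the floor on each array.

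Of a list of receptors, transcription factors and signal inhibitors tied to the induction of such genes, most compared genes were below control. Among 27 listed genes 21 were compared, and 16 were lower and 5 higher with either protein. The median log2 ratio was −0.31 with S100a8 and −0.18 with S100a9, against 0.01 and 0.0045 for all compared genes. At least 1.5-fold lower were 6 genes with S100a8 and 5 with S100a9, where the shares of all compared genes were 1.91% and 0.853%, and any lower ratio was held by 47.5% and 48.1%. After median centring 7 and 3 were 1.5-fold lower. The list was chosen with earlier results of these arrays known. It holds the inhibitors Nfkbia and Socs3 as well, so its counts are not of inducers alone. Nfkbia was among the genes at least 1.5-fold lower with each protein (log2 ratios −0.62 with S100a9 and −0.77 with S100a8). Socs3 had 0.07 and 0.02. Relb, an NF-kB subunit, had 1035 in the control, 598 with S100a9 and 500 with S100a8 (log2 ratios −0.79 and −1.05). Ly96, the Tlr4 partner that binds endotoxin, had 456, 280 and 248 (−0.70 and −0.88). Irf1, an interferon-response factor, had 1012, 728 and 688 (−0.48 and −0.56), and Nfkbiz, an NF-kB cofactor needed for Lcn2 induction, 2652, 2037 and 2297 (−0.38 and −0.21).

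Of the C/EBP and STAT factors, Cebpb had log2 ratios of −0.15 with S100a9 and −0.24 with S100a8, and Cebpd −0.17 and 0.18. Stat3, the transducer of IL-6 signals to acute-phase genes, had 0.06 and 0.11. Tlr4 had 0.09 and −0.06, and Tnfrsf1a, the main TNF receptor, 0.12 and 0.01.

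**Figure D4:**
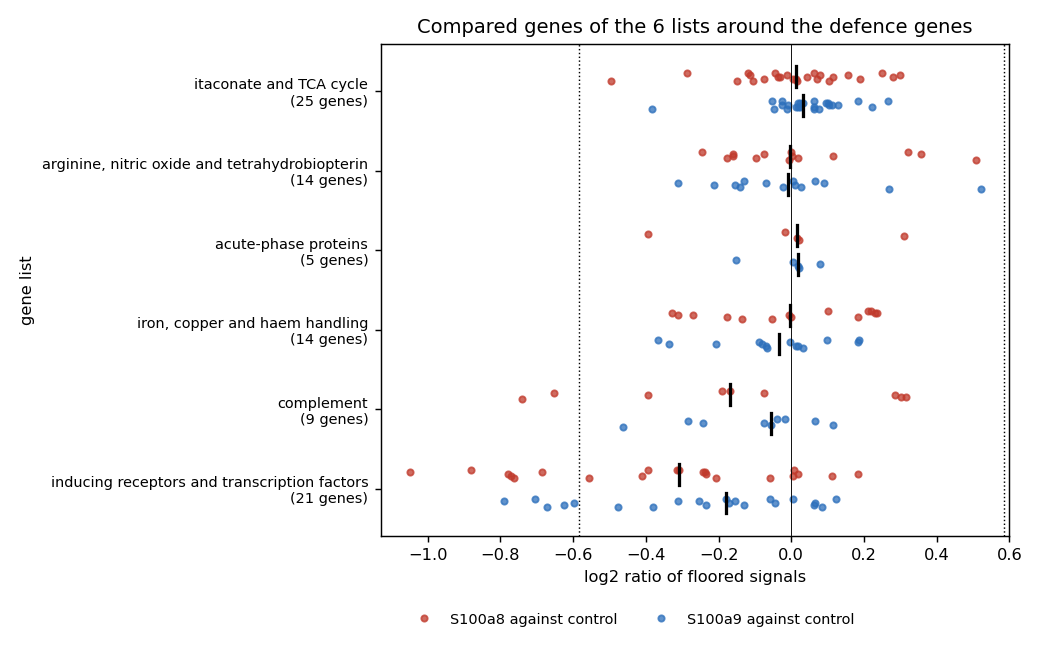
Log2 ratios against control (horizontal axis) of each compared gene of 6 lists, in red for S100a8 and blue for S100a9, with a black bar at each list's median and dotted lines at 1.5-fold. The list of inducing receptors and transcription factors has the lowest medians, −0.31 and −0.18, and the citric acid cycle list lies at 0.01 and 0.03.

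Of 10711 genes above the floor on all 3 arrays, those with clone or model names were passed over, also in the counts below. The genes with the most similar pair of ratios against control were sought among the rest, by the distance between the log2 ratio pairs. For Acod1 these were Hes1, a Notch-responsive repressor (distance 0.08), the cytokine gene Lif (0.11) and Cyp26b1, which degrades retinoic acid (0.18), and 1 gene lay within 0.1. For Saa3 they were Pdgfra (0.02), Mertk (0.03) and Fam193b (0.06), with 8 genes within 0.1. For Cp they were Hdac5 (0.01), Dvl1 (0.02) and Ntn4 (0.02), with 81 within 0.1, and for Lcn2 Clip4 (0.01), Apln (0.01) and Myo19 (0.02), with 37. The points of this likeness are 2 ratios that share a control array.

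The arrays had median signals of 78.6 (S100a8), 73.6 (S100a9) and 76.1 (control). The poly-A control transcripts gave median log2 ratios of 0.12 (SD 0.12) with S100a8 and 0.28 (SD 0.10) with S100a9 against control, over 24 probe sets. The S100a9 value is larger in size than the S100a9 log2 ratios of Cp (−0.26) and Saa3 (−0.15). Its part in these was not tested. The hybridization controls, over 18 probe sets, gave 0.02 (SD 0.04) with S100a8 and −0.01 (SD 0.08) with S100a9. Of 14 epithelial and colon markers, 10 were below the floor on each array, among them Cdh1, Krt8 and Vil1, while Krt18, Krt20, Epcam and Cdx2 were compared. Of 10 fibroblast markers 6 were compared. Lower than control were 6 of 6 with S100a8 and 5 of 6 with S100a9 (medians −0.49 and −0.17), against 47.5% and 48.1% of all compared genes. With S100a8, Pdgfrb (−0.92), Dcn (−0.92) and Pdgfra (−0.69) were at least 1.5-fold lower, 3 of the 6, against 1.91% of all compared genes. With S100a9, 1 of the 6 was, Pdgfrb (−0.76), against 0.853%. The list's summed signals were 10906 (S100a8), 11944 (S100a9) and 12138 (control), of which Col1a2 gave 7385, 7839 and 7467. Their part in the results was not tested. Of 10 macrophage markers 4 were compared, with 3 of the 4 higher with S100a8 and 4 of 4 with S100a9 (median log2 ratios 0.33 and 0.34). Of all compared genes, 47.5% and 48.1% were lower. Cd68 had 0.63 with S100a8 and 0.53 with S100a9, Csf1r 0.47 and 0.23, and Lyz2 0.20 and 0.45. Cd14 had −0.39 with S100a8 and was nearly equal to control with S100a9 (0.0053). The sums of the macrophage markers, 2232 (S100a8), 2466 (S100a9) and 2283 (control), were carried by Cd14 (1075, 1418 and 1413), and the other 6, with Adgre1, Itgam and Fcgr1 among them, were below the floor on each array. The part of macrophage RNA in the results was not tested. Neutrophil markers (1 compared of 10 listed) summed to 406, 330 and 348 and hepatocyte markers (1 of 10) to 393, 337 and 346. Lymphoid markers (3 of 8) summed to 1198, 976 and 1052 and endothelial markers (3 of 8) to 548, 481 and 479. With S100a8, 3 of 3 compared lymphoid and 3 of 3 compared endothelial markers were higher (median log2 ratios 0.36 and 0.27). With S100a9, 2 of 3 were higher in each list (0.01 and 0.0027). Of all compared genes, 47.5% were lower with S100a8 and 48.1% with S100a9. The compared neutrophil marker, Mpo, was dim and had 0.43 with S100a8 and −0.11 with S100a9. The hepatocyte marker Apoc3 had 0.13 and 0.05. All 3 cultures were of the CT26.WT line, so these lists name transcripts, and no cell types were counted. In bulk RNA, fewer cells of a type and less RNA per cell cannot be told apart.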

How the data were processed

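Total RNA of 3 CT26.WT cultures was measured on 1 array each. The authors deposited linear intensity values per probe set, and MAS5 is the tool named in the submitters' processing notes, with its version and target level not given in the sources here. In MAS5 the mismatch probes are subtracted, so dim signals are noisy, and whole-array scaling hides changes in total RNA per cell. Having 1 array per group limits the precision. Of 45101 probe sets, 64 controls were set apart, 34945 had 1 gene symbol, 932 had several and 9160 were unnamed in the platform annotation, which can be old. Of those with 1 symbol, 34741 matched RefSeq genes of GRCm38.p6 by Entrez number.

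Signals under the 50th percentile of all values (76.0) were set to that floor and log2 was taken. A gene took the values of its brightest probe set (mean log2 signal before the floor) and was compared where that mean exceeded the floor; this reading of the filter was settled on after the mean after the floor had also been tried. A fold with 1 signal at the floor is a lower bound. Counts used a 1.5-fold size. Genes named beside the 7 followed were, of each list, the 2 highest and 2 lowest ratios per protein, 12 fixed genes (1 of them not reported here), and the 3 nearest genes to each compared gene. Outside this rule, and chosen after their values were seen, are the succinate dehydrogenase subunits, Pdgfra as a fibroblast marker, Ttr, Nfkbia, Socs3, and examples below the floor (Saa1, Saa2 and markers). Members, lists and motifs were chosen with earlier results of these data known. Alternatives covered scaling, floor, filter, probe set and size. Scripts ran in Python 3.11.15 with pandas 2.3.3 and were checked on simulated arrays with planted changes.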

Additional observations from a re-analysis of the deposited data

How the results depend on the processing

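The settings tried were median centring, quantile normalization, centring by brightness in 20 bins, a lower floor (30th percentile), a higher floor (65th percentile), log2(value + 1) with no floor, no filter on dim genes, only genes above the floor on both arrays, averaging the probe sets of a gene, putting those ending in _x_at or _s_at last, a 2-fold size and, chosen after seeing the data, a filter on the mean after the floor. Over these 12 settings, 70 of 72 counts of genes past the size stayed within 1.5 times their main value. Part of this was fixed in advance. Most main counts were 0, and a 2-fold size cannot raise these. Acod1, Saa3 and Lcn2 have 1 probe set each, so the settings on probe sets, dim genes or a lower floor left their ratios unchanged. With a 2-fold size, 1 gene (Acod1) in place of 2 was lower with S100a8 than control. With median centring, 1 gene (Saa3) in place of 0 was at least 1.5-fold higher with S100a9 than S100a8, and 3 genes (Acod1, Saa3 and Cp) in place of 2 were at least 1.5-fold lower with S100a8 than control. Against control, the log2 ratios of the 4 compared genes kept their sign in each of the 11 settings that give a ratio. The filter on the mean after the floor compared 11709 genes in place of 11138 and left the counts of the 4 compared genes as they were, while the share of all genes at least 1.5-fold lower with S100a8 went from 1.91% to 1.84%. With median centring the list medians of the citric acid cycle and acute-phase genes with S100a8, and of the arginine and iron genes with S100a9, changed sign, all being within 0.05 of 0. With S100a8 they ranged from −1.55 to −0.93 for Acod1, −0.73 to −0.65 for Saa3, −0.61 to −0.53 for Cp and 0.44 to 0.53 for Lcn2. With S100a9 the ranges were −1.04 to −0.93, −0.15 to −0.10, −0.30 to −0.21 and 0.46 to 0.53. Between the proteins, Lcn2 ranged from −0.06 to 0.09 and so had no settled sign, and Acod1 from 0.00 to 0.53, with 0 where both arrays lay at the 65th percentile floor. The smallest movement counted was 1 SD of the log2 ratios over all compared genes, since there were no replicates. No paired analysis was possible because each group held 1 array. Signal over background limits Nos2, Hp and the dim Cp probe sets.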
